A study of Mus musculus with 18 samples.

Results

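H3K9me3 peaks centred on a SINE, a short interspersed nuclear element, were examined in mouse CD8+ T cells with and without the histone methyltransferase G9a. A peak was taken as a member where the deposited annotation of its centre named a repeat of class SINE. This held for 27939 of the 375410 peaks in 4 peak lists. The lists come from spleen CD8+ T cells of C57BL/6 mice cultured with antibodies to CD3 and CD28, either Ehmt2+/+ (WT, 2 libraries) or Ehmt2-/- (KO, 2 libraries), Ehmt2 being the gene for G9a. Chromatin was released by micrococcal nuclease without crosslinking and precipitated with an antibody to H3K9me3, and 1 list was deposited per library. The sources used here do not say how Ehmt2 was deleted, or whether the libraries of a genotype came from separate mice. The p-values below therefore take these libraries as the units, and differences between them may be technical.

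SINEs are short retrotransposons that are copied by the proteins of LINE elements. Mouse B1 descends from 7SL RNA and is placed in the Alu family, B2 and ID descend from tRNAs, B4 joins an ID-like part to a B1-like part, and MIR is an old family shared among mammals. Most carry an internal promoter for RNA polymerase III, whose B box is one of its binding elements. H3K9me3 is a mark of silent chromatin, best known at LTR elements, LINEs and satellites, where Setdb1 and the Suv39h enzymes write it. G9a mainly writes H3K9me1 and H3K9me2.

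The 4 lists were of unequal length. They held 85960 peaks in WT replicate 1, 23304 in WT replicate 2, 111149 in KO replicate 1 and 154997 in KO replicate 2. The low scores of a list were whole multiples of 1 step, within 0.0108 of a step, and higher scores were not checked for this. No read counts were used here, but if a step stands for 1 read, the ratio of steps puts the depth of WT replicate 2 at 0.343 of that of WT replicate 1, with the KO lists at 1.11 and 1.16. WT replicate 2 thus stands apart as the short list with the largest step, and the main results are also given for the 23304 highest scoring peaks of each list. The lists also differed on the X chromosome, which held 3.88% of the peaks of WT replicate 1 but 0.837% of WT replicate 2, and 0.345% and 0.299% of the KO lists. Only 166 SINE peaks lay there (98, 18, 23 and 27). The peak lists hold no reading of G9a or of cell type markers, so neither label could be checked in them. In the RNA libraries of the series, which come from other cells, Ehmt2 was at 18.1, 42.6, 27.0 and 21.5 FPKM in WT CD8 single-positive cells and at 12.6 and 13.6 in KO single-positive cells. It was at 20.9, 23.6, 12.8 and 7.28 FPKM in KO double-positive cells, which overlaps WT. Gene-level FPKM also counts exons that a deletion may leave.

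A pair of promoters is shown for genes with a SINE peak within 1 kb of their start. The first belongs to 2210417A02Rik, a non-coding RNA gene whose start site lay inside a B3 peak of the B2 family. The second belongs to Isoc2b, a gene of the isochorismatase family with a B3 peak in its first intron in 3 lists. Each run is the 250 bases before the annotated start, 5′ to 3′ on the gene's strand, from RefSeq on GRCm38.p6. The first spans chr5:148741590-148741839 on the plus strand and the second chr7:4866180-4866429 on the minus strand; the peaks themselves are on mm9, and coordinates of both builds are not interchangeable. Capitals mark letters of a B box search.

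2210417A02Rik: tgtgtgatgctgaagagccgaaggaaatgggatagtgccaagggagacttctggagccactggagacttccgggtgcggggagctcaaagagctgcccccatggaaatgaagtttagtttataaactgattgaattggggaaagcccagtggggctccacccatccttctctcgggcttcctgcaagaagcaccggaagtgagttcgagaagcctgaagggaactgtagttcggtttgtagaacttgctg
Isoc2b: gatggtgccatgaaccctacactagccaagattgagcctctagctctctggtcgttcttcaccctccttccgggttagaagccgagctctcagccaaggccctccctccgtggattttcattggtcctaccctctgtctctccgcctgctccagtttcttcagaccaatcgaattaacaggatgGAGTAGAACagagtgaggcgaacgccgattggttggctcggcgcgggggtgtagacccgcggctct

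The search used GTTCNANNC, letters of the B box, on both strands of windows running from 250 bases before to 50 bases after each start. In Isoc2b it matched once on the opposite strand, starting at base 185 of the run. It matched 3063 of 32851 promoters (9.32%). Of 50 genes with a SINE peak within 1 kb of their start, 3 on chromosomes or contigs not named here were left out. Of the remaining 47, 36 were in the RefSeq table, and 6 of their 44 promoters (13.6%) held a match, in 5 genes. None of the 7 promoters whose start site a SINE peak covered held one, which says only that these letters are not in those windows. The SINE copies under the peaks lie outside these windows, and their sequences were not used here.

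SINE peaks made up 7.87% of the list in WT replicate 1 (6764 peaks, 95% Wilson interval 7.69 to 8.05%), 10.4% in WT replicate 2 (2429 peaks, 10.04 to 10.8%), 7.29% in KO replicate 1 (8107 peaks, 7.14 to 7.45%) and 6.86% in KO replicate 2 (10639 peaks, 6.74 to 6.99%). The intervals cover counting error only. The share was 9.15% ± 1.81 in WT and 7.08% ± 0.304 in KO (SD, n = 2 each), a difference of -2.07 percentage points (exact permutation test, two-sided, p = 0.333). Both KO lists lay below both WT lists, but 0.333 is the smallest p that 2 lists against 2 can give, so no comparison of genotypes here could pass a threshold of 0.05. Without WT replicate 2 the difference was -0.790 points. With 23304 peaks per list the shares were 9.71% and 10.4% in WT and 9.59% and 7.90% in KO. KO replicate 1 then lay close to WT replicate 1, and KO replicate 2 was the lowest. By length rather than number, SINE peaks took 7.78% and 10.4% of the covered base pairs in WT and 7.18% and 6.69% in KO.

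Among the 27939 SINE peaks, B2 led with 13162 (47.1%), followed by B4 with 7348 (26.3%), B1 with 5367 (19.2%), MIR with 1660 (5.94%) and ID with 373 (1.34%). A further 24 peaks carried no family beyond SINE, and 5 were tRNA-like. The B2 family was itself mostly B3 (6771 peaks) and B3A (4021), with B2_Mm2 at 1980. These shares describe the lists; how many copies each family has in the genome was not used here.

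B2 took 50.0% and 47.2% of SINE peaks in WT and 47.7% and 44.8% in KO, and the genotypes overlapped (difference -2.34 points, exact permutation p = 0.667). B1 was lower in both KO lists: 22.4% and 30.8% in WT against 17.7% and 15.7% in KO (26.6% ± 6.00 and 16.7% ± 1.41, SD, n = 2 each; difference -9.89). B4 was higher in both, at 22.0% and 17.99% against 26.7% and 30.7% (19.99% ± 2.82 and 28.7% ± 2.82; difference 8.68). MIR was also higher, at 4.23% and 2.39% against 6.76% and 7.22% (difference 3.68). ID stood at 1.27% and 1.56% against 1.15% and 1.47%, with overlap. B1, B4 and MIR each gave an exact permutation p of 0.333 (0.778 after Benjamini-Hochberg adjustment over 7 families), so none passed. Without WT replicate 2 the B1 difference was -5.65 points. With equal numbers of peaks, 3 lists came close together for B1 (19.5% in WT replicate 1, 18.2% and 19.1% in KO) and WT replicate 2 stayed at 30.8%. For B4, 3 lists lay between 17.99% and 18.5% and KO replicate 2 was at 27.3%. The B1 gap at equal numbers thus came from 1 WT library and the B4 gap from 1 KO library; MIR still did not overlap, at 3.76% and 2.39% against 5.28% and 6.79%.

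**Figure D1:**
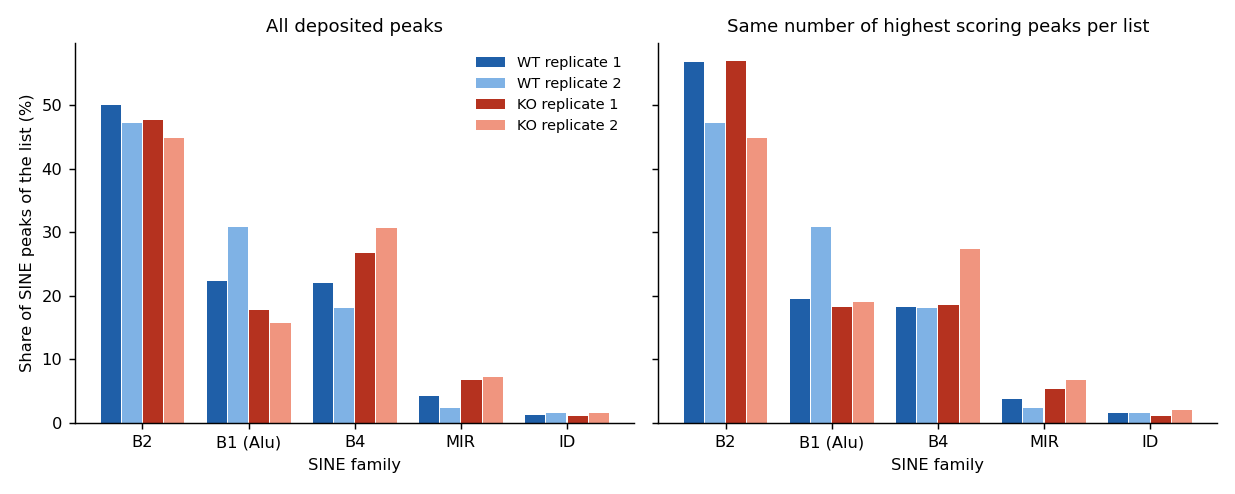
Share of the SINE peaks of each list that belong to each family, in percent, for all deposited peaks (left) and for the 23304 highest scoring peaks of each list (right); each bar is 1 library. On the right, B1 stands out in WT replicate 2 at 30.8% and B4 in KO replicate 2 at 27.3%, while the other 3 libraries of each family lie close together.

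Within B1, the youngest subfamilies (B1_Mm, B1_Mus1 and B1_Mus2, grouped after their values were seen) made up 53.5% and 55.5% of B1 peaks in WT and 36.3% and 32.1% in KO, without overlap. Their median score percentile, the rank of a peak's score within its own list, reached 60.6 and 63.2 in KO against 46.0 and 52.9 in WT. For older B1 peaks the same medians were 55.0 and 60.1 in WT against 56.7 and 54.3 in KO, and here the genotypes overlapped. For B1_Mus1, the largest of the 3, percentiles overlapped between genotypes. Within equal numbers of highest scoring peaks, an alternative added later, young elements made up 46.2% and 55.5% of WT B1 peaks, against 42.9% and 41.0% for KO, and the young percentiles overlapped (57.7 and 52.9 against 61.4 and 49.0). Of 21 SINE subfamilies with at least 20 peaks in every list, 17 (81.0%) had shares of SINE peaks that did not overlap between genotypes, 10 higher in WT and 7 higher in KO. Over all 120 such SINE, LINE and LTR subfamilies, shares of the class did not overlap in 61.7% (66.7% of LTR and 41.7% of LINE). Median score percentiles did not overlap in 9 of 21 SINE subfamilies (42.9%), 6 higher in KO and 3 higher in WT, near the 47.5% of all 120. Shares within a list sum to a fixed total, so 1 family's rise lowers the rest. B1_Mus1 was 5.40% and 8.48% of SINE peaks in WT against 2.997% and 2.54% in KO, and B4A was 9.11% and 6.22% against 11.9% and 13.8%.

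SINE peaks ranked above the median of the rest of their lists. Their median score percentile was 57.5 in WT replicate 1, 60.1 in WT replicate 2, 60.6 in KO replicate 1 and 57.6 in KO replicate 2. This exceeded the median of all other peaks by 8.24, 7.20, 14.0 and 7.12 points, in 4 of 4 lists (exact sign-flip test, two-sided, p = 0.125, the smallest p that 4 lists allow). SINE peaks outside B2 had medians of 49.3, 52.9, 52.0 and 50.5, the same as all peaks of each list. In the 23304 highest scoring peaks the excess of all SINE peaks was 2.90, 7.20, 2.50 and 0 points, so it was small or absent among the strongest peaks of the lists other than WT replicate 2. Among peaks of exactly 500 bp, it was 5.35 points in WT replicate 1 and 0 in the others. KO and WT overlapped (59.1 ± 2.10 and 58.8 ± 1.83, SD, n = 2 each; exact permutation p = 0.667), and the sign of this difference changed with the subset of peaks.

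B2 had the highest ranks of the 4 largest families. The median percentile of B2 peaks was 61.8, 60.1, 66.8 and 60.5 (WT replicates 1 and 2, then KO replicates 1 and 2). B1 medians were 49.3, 52.9, 56.7 and 57.6, and B4 medians were 49.3, 52.9, 52.0 and 50.5, near the middle of each list. B2 exceeded all other SINE peaks together by 12.5, 7.20, 14.8 and 10.03 points, again in 4 of 4 lists (exact sign-flip p = 0.125). This comparison and those of B2 with other SINE peaks below were added after the data were seen. Their p-values describe a family picked from these same lists and are no independent support. ID peaks, few in number, ranked at 59.6, 43.6, 60.6 and 61.9. LTR peaks, the class best known for this mark, had medians of 57.5, 60.1, 56.7 and 54.3, and LINE peaks 42.3, 32.3, 46.6 and 45.9. Families were wide inside: the middle 50% of B2 peaks of WT replicate 1 ran from percentile 38.1 to 82.4.

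**Figure D2:**
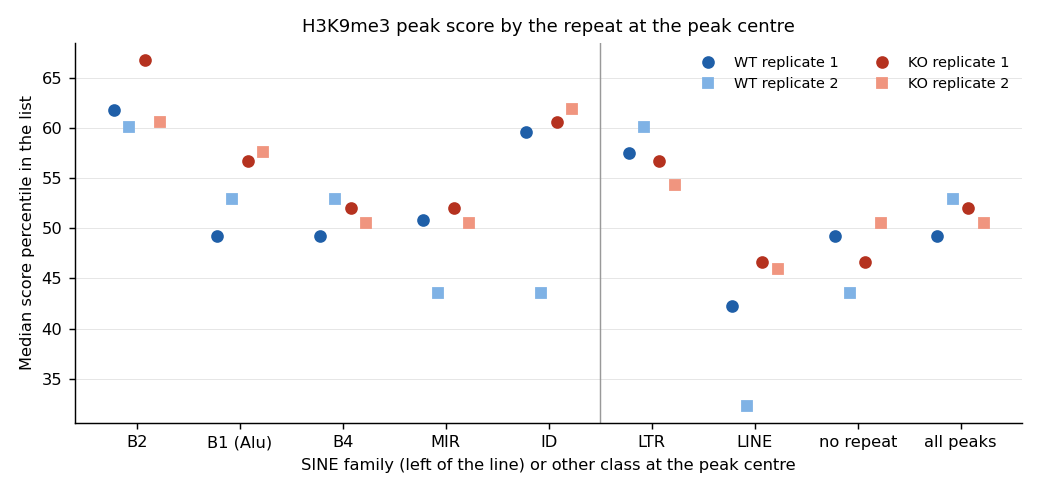
Median percentile of the deposited peak score within its own list, by SINE family (left of the line) and for other classes at the peak centre (right); each point is 1 library. B2 medians lie between 60.1 and 66.8, while those of B4 lie between 49.3 and 52.9.

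The share of B2 rose with score over most of each list, and in 3 of the 4 lists it was lower in the highest decile than in the ninth. B2 peaks were 2.39% of all peaks in the lowest score decile of WT replicate 1, 6.00% in the ninth and 5.15% in the highest. In WT replicate 2 the same shares were 2.62%, 7.84% and 5.52%, in KO replicate 1 1.84%, 5.25% and 5.76%, and in KO replicate 2 1.98%, 3.75% and 3.42%. Over all deciles and lists B4 stayed between 1.38% and 2.39%, and B1 between 0.894% and 4.08%. Within the 23304 highest scoring peaks of each list the B2 median was no longer above that of other SINE peaks in 3 lists: the difference was -6.67, 7.20, 0 and -8.28 points, with a mean of -1.94 (exact sign-flip p = 0.75). For score per base pair of peak, an alternative added later, the B2 excess was 21.0, 5.89, 24.5 and 22.4 points.

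**Figure D3:**
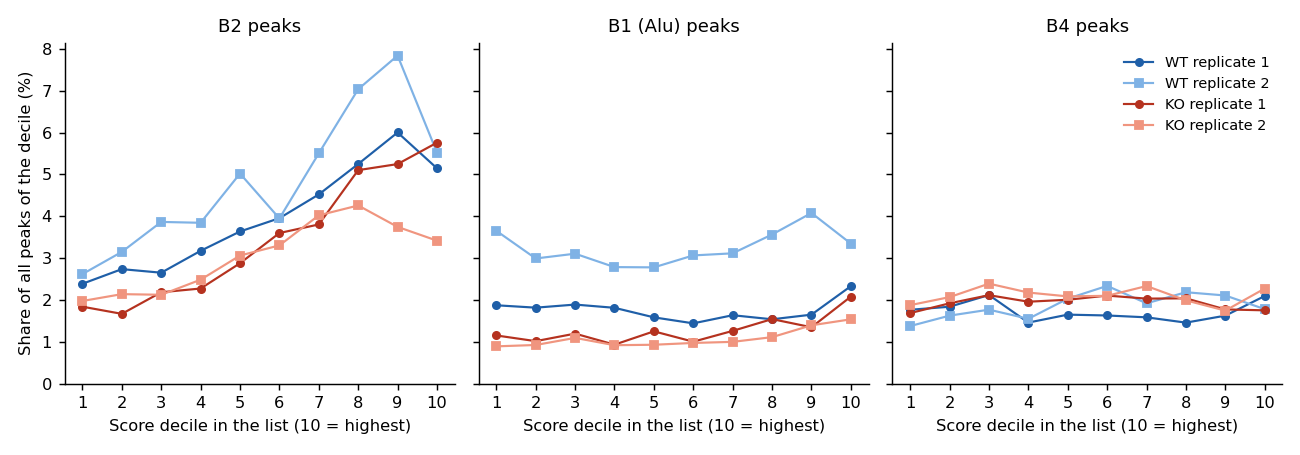
Share of all peaks of a score decile (x axis, 10 the highest scores of the list) that were centred on B2, B1 or B4, in percent, 1 line per library. B2 climbs from 1.84 to 2.62% in the lowest decile to 3.42 to 5.76% in the highest, with its maximum in the eighth decile in KO replicate 2, in the ninth in both WT lists and in the tenth in KO replicate 1; B4 stays between 1.38 and 2.39%.

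Most SINE peaks were narrow, as were the peaks of the lists as a whole. Over all peaks the median width was 631, 500, 500 and 628 bp (WT replicates 1 and 2, then KO replicates 1 and 2). Exactly 500 bp wide were 47.0%, 60.7%, 55.1% and 48.3% of all peaks. The median width of SINE peaks was 638 bp in WT replicate 1, 500 bp in WT replicate 2, 500 bp in KO replicate 1 and 631 bp in KO replicate 2, and 42.6%, 53.4%, 50.6% and 45.7% of them were exactly 500 bp wide. The genotypes overlapped (569 bp ± 97.6 in WT and 566 bp ± 92.6 in KO, SD, n = 2 each; exact permutation p = 1). B2 medians were 651.5, 626, 628 and 630 bp. The widest SINE peak, 14167 bp, was centred on a B4 element in WT replicate 1. A SINE is far shorter than such a peak, so the annotation names only what lies at the centre.

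SINE peaks had shorter median distances to genes than all peaks of their list. By the way the annotation ranks features, all SINE peaks were intronic or intergenic, and the nearest centre lay 237 bp from a transcription start site (TSS). Introns held 39.4%, 38.9%, 37.4% and 36.5% of them, against 27.6%, 30.1%, 27.0% and 26.8% of all peaks. The median distance to the nearest TSS came to 69.0 and 73.1 kb in KO against 39.4 and 26.5 kb in WT, without overlap (exact permutation p = 0.333). The same shift was present over all peaks, at 103 and 59.6 kb in WT and 146 and 148 kb in KO. At equal numbers the SINE medians were 24.2 and 26.5 kb in WT and 33.5 and 54.2 kb in KO.

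B2 peaks had the shortest median distance to genes of the families in each list. Their median distance was 25.8, 21.8, 38.0 and 37.7 kb, against 69.9, 34.2, 119 and 122 kb for other SINE peaks (4 of 4 lists, exact sign-flip p = 0.125). B1 medians were 47.2, 25.2, 70.0 and 72.4 kb. B4 lay farther out, at 97.6, 55.7, 151 and 142 kb, and MIR at 105, 105, 157 and 142 kb. Within 5 kb of a TSS lay 12.9%, 12.8%, 9.55% and 8.53% of B2 peaks, against 6.30%, 11.5%, 4.88% and 4.07% of other SINE peaks. For B1 alone these shares were 8.27%, 14.8%, 8.78% and 7.60%, above B2 in WT replicate 2. B2 peaks also had an LTR peak of the same list within 5 kb less often than other SINE peaks, with differences of -3.34, -2.19, -6.02 and -6.46 points (exact sign-flip p = 0.125).

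**Figure D4:**
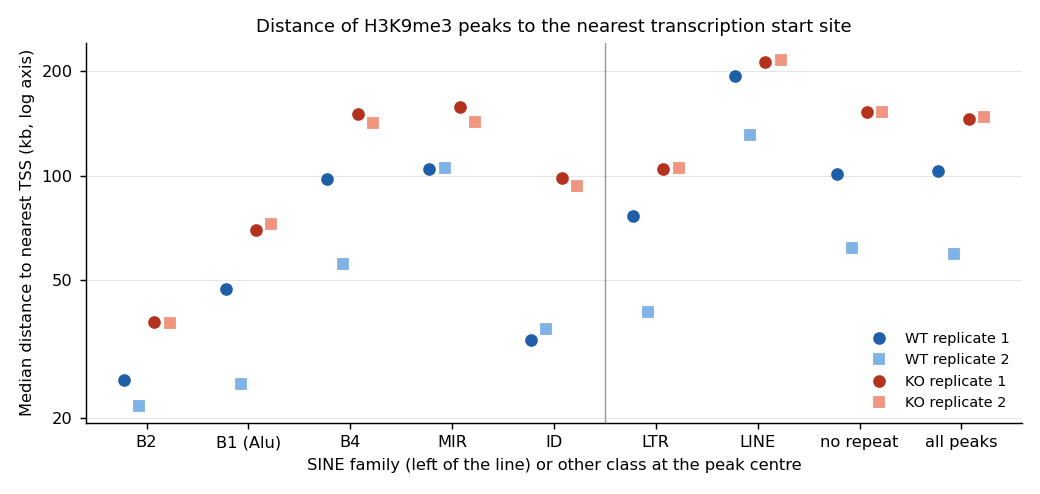
Median distance from the peak centre to the nearest transcription start site, in kb on a log axis, by SINE family and for other classes; each point is 1 library. B2 medians are the lowest in each list, at 21.8 to 38.0 kb, and the KO points lie above the WT points for SINE families and for all peaks alike.

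Ranks and sharing were also compared at like distances from genes. Peaks were divided at 5, 20 and 100 kb and those beyond 500 kb left aside, giving 16 bins over the 4 lists. B2 had a higher median percentile than B1 in 12 bins, than B4 in 12, than LINE in 16 and than peaks outside repeats in 14. Against LTR it was higher in 6 and equal in 6. B2 peaks were overlapped in another list more often than B1 and B4 peaks in all 16 bins, and than LTR peaks in 13. Beyond 500 kb this lead was not kept. There the shares of B2 peaks were 53.2%, 60%, 42.4% and 33.2% (WT replicates 1 and 2, then KO replicates 1 and 2), from 62, 10, 191 and 226 peaks. B1 peaks gave 45.1%, 57.6%, 37.8% and 34.9%, and B4 peaks 58.4%, 40%, 46.2% and 30.1%. LTR peaks were above B2 in each list, at 53.3%, 66.8%, 48.0% and 39.4%.

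SINE peaks were shared between libraries more often than the pool of all other peaks. A peak of another list overlapped 69.5% of SINE peaks in WT replicate 1, 81.1% in WT replicate 2, 68.3% in KO replicate 1 and 55.5% in KO replicate 2. The excess over all other peaks was 10.7, 6.81, 10.6 and 9.58 points (4 of 4 lists, exact sign-flip p = 0.125). An overlap between lists enters the values of both. These 4 differences, and those of B2 sharing and centre distance below, are thus not independent, as the test assumes them to be. LTR peaks came nearest, at 64.5%, 85.9%, 65.6% and 52.3%, and lay above SINE peaks in WT replicate 2. All 3 other lists held a peak at 15.2%, 39.9%, 13.3% and 9.94% of SINE peaks, against 8.07%, 27.4%, 5.88% and 4.37% of all peaks and 12.7%, 40.9%, 10.5% and 7.67% of LTR peaks. No other list did for 30.5%, 18.9%, 31.7% and 44.5%, against 40.3%, 25%, 41.5% and 53.4% of all peaks. WT replicate 2, set against 3 longer lists, had the highest shares. The overlapping peak was often centred on another element: counting only SINE over SINE and other over other, the difference was -17.5, -22.3, -21.2 and -16.7 points. SINE peaks were only 6.86 to 10.4% of a list, so this count left them far fewer targets than other peaks. It therefore cannot say which are shared more.

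Sharing within a genotype overlapped between WT and KO. The other list of the genotype overlapped 24.8% and 68.8% of SINE peaks in WT and 56.5% and 40.8% in KO (difference 1.85 points, exact permutation p = 1). Peaks found only in both lists of a genotype were 3.64% and 11% of SINE peaks in WT and 24.9% and 16.5% in KO, beside 3.08%, 14.5%, 29.2% and 19.7% of all peaks. These shares lie near those of all peaks. Both lists of the other genotype, but not the mate, overlapped 18.9% and 3.87% of SINE peaks in WT and 2.62% and 2.21% in KO, beside 15.6%, 5.24%, 1.37% and 1.13% of all peaks. At equal numbers the mate list overlapped 52.5% and 50.5% in WT and 43.1% and 51.0% in KO.

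Of the 5 larger families, B2 was the most often shared and had the closest centres. Another list overlapped 76.5%, 88.2%, 76.3% and 64.6% of B2 peaks, above other SINE peaks by 14.0, 13.5, 15.3 and 16.4 points (4 of 4 lists, exact sign-flip p = 0.125). All 3 other lists did so for 19.6%, 50.3%, 19.5% and 14.9% of B2 peaks, and for 9.35%, 26.1%, 4.86% and 3.68% of B4 peaks. The median distance between the centre of a B2 peak and that of its overlapping peaks was 116, 134, 129 and 125 bp. B2 minus other SINE peaks was -156.5, -112, -145 and -168 bp (exact sign-flip p = 0.125). Over the 12 ordered pairs of lists, the median distance was 92 to 156.5 bp for B2, 150 to 233.5 bp for B1 and 206.5 to 350.5 bp for B4. LTR peaks gave 179 to 239 bp and LINE peaks 197.5 to 278 bp. The B2 range of distances thus lay below those of LTR and LINE peaks. The overlapping peak was centred on a SINE of any family in 43.7 to 56.6% of B2 pairs, 32.1 to 43.9% of B1 pairs and 26.2 to 39.4% of B4 pairs. It had the same subfamily in 31.2 to 47.9% of B2 pairs, 15.6 to 26.8% of B1 pairs and 13.5 to 22.3% of B4 pairs. Among peaks of exactly 500 bp the B2 distance minus that of other SINE peaks was -142 bp on average.

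**Figure D5:**
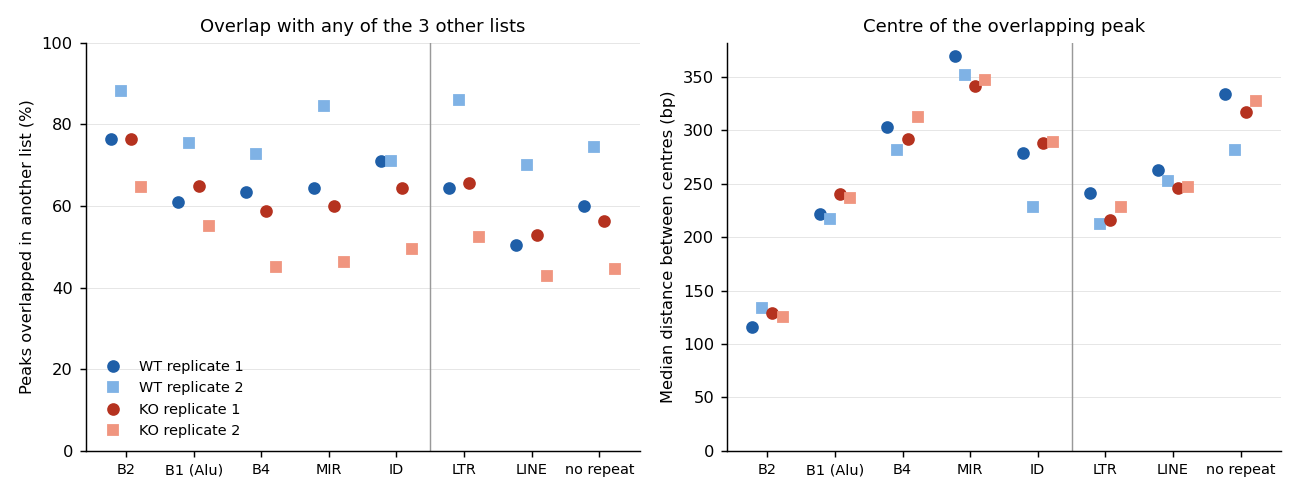
Left, share of peaks overlapped by at least 1 bp in any of the 3 other lists, in percent. Right, median distance in bp between the centres of overlapping peaks of different lists; each point is 1 library, by SINE family and other class. B2 centres lie 116 to 134 bp apart, below each other family and class shown.

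Merging the lists gave 250064 regions, of which 22345 held a SINE peak and 207 had a SINE peak in all 4 lists. In 113 of the 207, all peaks of the region were B2. Of the 10 such regions with the highest mean percentile, 9 had a B2 peak in at least 1 list and 5 were on B2 in every list. B2 was 47.1% of all SINE peaks, and the like counts over other regions are not given here. These counts therefore show no lead of B2 among shared regions. The first lay at chr13:52120314-52123854 (mm9, WT replicate 1), 70.0 kb from 4921525O09Rik, and was centred on B4 in all lists. Its scores were 259.7 and 298.3 in WT and 152.9 and 97.4 in KO, percentiles 99.9, 99.8, 99.9 and 99.8 of their lists; scores of different lists are not on a common scale. The second lay 25.6 kb from Spata3 at chr1:87891665-87894172, on B2_Mm2 in all 4 lists, at percentiles 98.8, 98.8, 99.4 and 98.6. The third lay in intron 5 of Tgfb1, the gene of a cytokine that restrains T cells, at chr7:26484593-26487804. Its centre was on B3 in both WT lists, on B1_Mur2 in KO replicate 1 and on PB1D10, a B1 relative, in KO replicate 2. Others lay in intron 1 of Fbxo11, a ubiquitin ligase component, and in intron 1 of Sidt1, a membrane protein linked to RNA uptake. The rest were intergenic, nearest to Nr2e1, Aebp2, Sim2, Polr1d and Os9. The regions near Aebp2, a cofactor of Polycomb repressive complex, near Sim2, a transcription factor, and near Polr1d, a subunit of RNA polymerases, were each on B3 in all 4 lists.

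The highest scoring peak of each family and list was looked up. Of these 20 peaks in 5 families, 15 were overlapped in all 4 lists. The strongest peaks of other classes were not counted this way, so the 15 show no trait particular to SINE peaks. In WT the strongest B2 peak was a B3 element 2.40 and 2.52 kb from Eif4enif1 on chromosome 11 (percentiles 99.9 and 99.9). In KO replicate 1 it was a B3 element in intron 12 of Il16, the gene of a T-cell chemoattractant, and in KO replicate 2 a B3 element in intron 4 of Zfp110, a zinc finger gene. The strongest B1 peak of KO replicate 1, on B1_Mm in intron 1 of Sfi1, had the highest SINE score of its list (1132). It lies on chromosome 11 beside the Eif4enif1 peak. Reads of near-identical copies cannot be placed with certainty; the treatment of such reads by the authors is not stated. This holds for young SINE copies in general.

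Peaks close to a start site were rare. Within 1 kb lay 67 SINE peaks at 50 genes, and 34 of them, at 20 genes, were overlapped in at least 3 lists. B2 made up 24 of these 34. The like shares over all peaks near a start, and of B2 among the 67, are not given here. Timm8a2, a mitochondrial import gene, had B3 peaks 730 and 709 bp from its TSS in the KO lists, at percentiles 97.2 and 95.4, and peaks overlapped them in all 4 lists. BC051019 had B3 peaks in WT replicate 1 and both KO lists, at percentiles 94.7, 93.0 and 91.7. Ttc34 had B3 or B3A peaks in all 4 lists, at 88.8, 65.5, 92.6 and 87.1. The Isoc2b peaks, whose promoter is printed above, were on B3 at 704 bp in WT replicate 1 and at 853 and 784 bp in KO, at percentiles 82.4, 89.6 and 60.5. Peaks at Unc13b, a gene of vesicle release, were on B1F in WT replicate 2 and KO replicate 2, at percentiles 43.6 and 73.7. The peak that covers the start of 2210417A02Rik, in WT replicate 2, was 1042 bp wide at percentile 83.0, and a B3 peak lay 550 bp from the same start in KO replicate 2. A start was covered by a SINE peak in 7 cases, each in 1 list: the others were 1600027J07Rik, Flg2, Igfl3, Rpl39l, Sftpa1 and Usp26.

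Gene lists were looked up for a SINE peak whose nearest TSS was theirs. Of 22 helper lineage genes, 11 had one, in 24 peaks (11 and 5 in WT, 3 and 5 in KO), while 17 had any peak, in 218. Over the RNA table, 29.6% of 23234 genes were the nearest gene of a SINE peak, and so were 50.2% of the 14910 genes nearest to any peak. Il13, a type 2 cytokine gene, had peaks 8.12, 7.98 and 8.15 kb upstream in WT replicate 1, KO replicate 1 and KO replicate 2, on B3, ID_B1 and B3, at percentiles 83.6, 95.1 and 89.7. Ccr8, a chemokine receptor gene, had a B3 peak about 11.3 kb upstream in WT replicate 2 and 11.2 kb in KO replicate 2, at 89.8 and 92.3, and a B4A peak 2.59 kb upstream in WT replicate 1 at 95.7. Cd4 had 1 peak, on PB1D10 in intron 1, in WT replicate 1, at 90.7. Il4, which encodes the leading type 2 cytokine, had a B3A peak 5.65 kb upstream in WT replicate 2 and an ID_B1 peak 11.98 kb away in KO replicate 2. Counts of so few peaks over lists of unequal length give no order between genotypes.

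Of 10 CD8 lineage genes, 4 had a SINE peak, in 7 peaks, and 7 had any peak, in 69. Gzmm, which encodes a granzyme, had a B3A peak in intron 1 in both WT lists and KO replicate 2, at 87.9, 89.8 and 94.4. Of 17 genes of the H3K9 methylation machinery, 6 had one, in 14 peaks, and 8 had any peak, in 139. Atrx, a chromatin remodeller of silent repeats, had a B3 peak in intron 1 on chromosome X in WT replicates 1 and 2 and KO replicate 1, at 95.6, 43.6 and 91.9. Setdb1 had peaks in intron 4 in WT replicate 1, KO replicate 1 and KO replicate 2, at 38.1, 75.2 and 78.6. Among nearest genes with names in Zfp, the zinc finger genes, the share of SINE peaks was 1.42%, 1.77%, 1.22% and 1.06%, near the 1.29%, 1.94%, 1.01% and 0.946% of all peaks. Olfactory receptor genes were nearest to 0.281%, 0.165%, 0.395% and 0.451% of SINE peaks, against 1.24%, 0.841%, 1.37% and 1.43% of all peaks.

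RNA near SINE peaks can only be set beside them, since it comes from cells that had expanded for 4 weeks in lymphopenic surroundings. Of 1264 genes with a SINE peak within 5 kb, 50.1% had a mean of at least 1 FPKM in WT single-positive cells (median 1.01). The same held for 28.5% of 4600 genes with only other peaks within 5 kb (median 0.0163) and for 43.6% of all 23234 genes (median 0.200). In KO single-positive cells the shares were 49.1%, 28.2% and 42.8%, and in KO double-positive cells 51.1%, 29.7% and 44.4%. Within 1 kb, 31.1% of 45 genes with a SINE peak and 19.95% of 2015 with only other peaks reached 1 FPKM in WT. Isoc2b, with B3 peaks in its first intron, was at 11.6, 8.96, 14.8 and 9.69 FPKM in WT single-positive cells and at 21.8 and 17.5 in KO single-positive cells. Its KO double-positive values, 16.1, 16.9, 13.2 and 6.83, overlapped WT. Zkscan3, a zinc finger gene with a MIR peak in WT replicate 2, was at 25.3, 17.7, 31.9 and 33.6 FPKM in WT single-positive cells, 27.9 and 30.1 in KO single-positive cells and 19.9, 13.1, 9.33 and 6.87 in KO double-positive cells. BC051019 was listed at 0 in all 10 libraries, and Timm8a2 did not exceed 0.234.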

How the data were processed

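Native H3K9me3 ChIP-seq was deposited as 1 annotated peak list per library, and RNA-seq as 1 table. Per the submitters' processing notes, the authors used Bowtie and HOMER on mm9 for peaks and TopHat and Cufflinks for RNA; no source used here gives versions, the calling threshold, the use of input or the treatment of reads that map to several copies. The input libraries were not analysed here. Each peak carries a score deposited by the authors whose scaling is not given, so it was ranked within its own list, ties at their mean rank. The distance to the nearest transcription start site and the repeat at the peak centre are other columns deposited by the authors. The authors' deposited RNA values are FPKM, whose read depth is unknown; repeated symbols were summed.

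The annotation puts start sites, exons and ends before repeats, so SINE peaks were intronic or intergenic by construction. No peak carried an uncertain class. Peaks of different lists counted as overlapping from 1 bp, and the centre distance was averaged over the lists that overlapped. The library was the unit: exact permutation tests compared 2 WT with 2 KO lists (smallest p 0.333) and exact sign-flip tests compared SINE or B2 peaks with others within 4 lists (smallest p 0.125). Named peaks were the 10 regions with a SINE peak in all lists of highest mean percentile, the strongest peak per family and list, up to 15 genes with a SINE peak within 1000 bp of the start overlapped in at least 3 lists, and peaks nearest to 3 gene lists; chromosome 18 and unplaced contigs were not named. The members, lists and rules were chosen with earlier results of these data known. Alternatives were equal numbers of peaks, the higher scoring 50% of peaks, autosomes, no satellites, other overlaps and summaries, a replicate block, each library left out, and, added after seeing the data, score per bp, peaks of 500 bp and the B2 comparisons. Overlap and rank code was tested on simulated data against direct counting. Python 3.11.15, numpy 2.4.6, pandas 2.3.3, scipy 1.17.1 and matplotlib 3.10.9 were used.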

Additional observations from a re-analysis of the deposited data

Results flagged for a closer look

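Over 12 genes near SINE peaks, 19 groups of 4 RNA libraries held unequal values, and in 5 of them 1 value stood far from the other 3. Chance marks about 1 in 20 groups this way, but not where 3 values are listed at 0. Any other value then stands far from them, as for Timm8a2 and Ttc34 below. Whether the 5 exceed chance was not tested. For 2210417A02Rik the highest value was 1.07 FPKM in WT single-positive cells and 8.12 FPKM in KO double-positive cells. For Timm8a2 it was 0.198 FPKM in KO double-positive cells, the other 3 being listed at 0. For Ttc34 it was 0.0308 FPKM in WT single-positive cells, again beside 3 libraries listed at 0. For Unc13b it was 0.314 FPKM in KO double-positive cells.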

How the results depend on the processing

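Of 160 alternative values over 19 results, 140 kept their direction, 19 turned and 1 moved without turning. A further 27 (uncertain classes, of which there were none, and the block) equal the main values by construction. So do some of the 140. Leaving out satellites could not change the family shares, the width, the distances to a TSS or the B2 share near an LTR peak. No test could pass 0.05, so this says nothing of stability. The lists' unequal length and step limit every comparison of genotypes. With equal numbers of highest scoring peaks, KO minus WT became -5.56 for the score percentile, 424 bp for the width and -4.45 points for the overlap within a genotype, and B2 minus other SINE peaks became -1.94 percentile points. For young B1, an alternative added later, the KO minus WT share moved from -20.3 to -8.91 points and the percentile from 12.4 to -0.102. In the higher scoring 50% of each list the percentile difference was -1.97, the overlap difference -1.87 and the ID share difference 0.168. The overlap difference was -2.61 with 50% of the peak and -0.680 with SINE peaks as targets. Counting only SINE over SINE and other over other, SINE minus other sharing was -19.4 points, with far fewer targets for SINE peaks. Among peaks of 500 bp the B2 share difference was 0.451 and the percentile difference -0.740. Leaving out each library, the percentile difference ran from -1.18 to 1.79, the width difference from -72.5 to 65.5 bp and the ID share difference from -0.271 to 0.0484. The cause was not tested. With a replicate block (KO minus WT within each number, exact sign-flip test over 2 pairs, smallest p 0.5) the SINE share difference was -2.07 points (p = 0.5) and the B1 difference -9.89; the labels do not say that the numbers pair the samples.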
